A study of Brassica napus with 9 samples.

Results

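Among the transcripts of Brassica napus guard cells, 12 genes of 101040 in the count table stood above mock after 15 min of abscisic acid (ABA) and were below it or within 0.1 of it on the log2 scale after 60 min, in each of the 3 replicates. They were chosen by their values. For every gene, the log2 ratio of the 15-min sample to the mock-treated sample of the same replicate number was taken, and likewise that of the 60-min sample. Values were log2 CPM, which set each count against its library's size, after scaling by edgeR's trimmed mean of M-values (TMM) and with a prior count of 2. A gene was a member when it had a mean of at least 200 counts over the 9 samples, a 15-min ratio of at least 0.2 in all 3 replicates and a 60-min ratio of at most 0.1 in all 3. A pair of genes for CYP707A1 was to be left out by name, and any gene whose 60-min ratios were all below -0.8 was to be dropped, but neither condition removed a gene. Of the 101040 genes, 52881 passed edgeR's filter on low counts, 31341 of these reached a mean of 200 counts, and 12 met the conditions on the ratios. All 12 were therefore tested, and none was lost to the filter.

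The cells came as guard cell protoplasts, whose walls had been digested away by enzymes, from leaves of the double-haploid B. napus line DH12075. The groups were 3 mock-treated samples, 3 samples exposed to 10 µM ABA for 15 min and 3 samples exposed to 10 µM ABA for 60 min. Each sample pooled 3 to 5 protoplast preparations, and each replicate number joined 1 sample of every group. All 9 samples thus shared the removal of the cell wall, and no mock incubation was matched to each exposure, so that ABA and the time in the incubation medium cannot be told apart.

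ABA is the hormone by which plants under water shortage close their stomata, the leaf pores that a pair of guard cells borders. It binds soluble receptors that inhibit clade A type 2C protein phosphatases, which frees kinases such as OST1 to act on ion channels and on transcription factors. Transcripts that respond to a hormone may keep changing while it is present or may come back early, and enzymes of the CYP707A family, which inactivate ABA by hydroxylation, are a known negative feedback in Arabidopsis thaliana. The 12 genes carry the IDs of the Darmor genome annotation only. No A. thaliana counterpart, product name or sequence for them was in the sources used here, so they are described by ID and by their counts, and no role is given.

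Total counts per library were between 88051359 and 123968001. TMM factors were 0.812 to 0.938 at 60 min and 0.931 to 1.202 in the other libraries, and the 60-min library had the lowest factor of each replicate number. Samples with the same replicate number deviated together from their group means, with correlations from 0.715 to 0.851 across genes, so the number entered the model as a block. All 7 guard cell marker genes for OST1, ALMT12 and MPK12 were detected in every library, at 2.23 to 1100 CPM. ALMT12 is a malate channel of the guard cell membrane and MPK12 a guard cell kinase. The CAB1 gene BnaC03g59520D, which encodes a chlorophyll-binding protein of the photosynthetic antenna, had 19.8 to 56.9 CPM. Reads that fit more than 1 gene copy were discarded by the authors, so the values of near-identical copies in this allotetraploid genome are uncertain, and the strand setting of the counting is not given in the sources used here.

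The pattern was small in size and made up a small part of the early response. Over the 12 genes, the fitted fold change at 15 min against mock was between 1.17 and 1.29 (median 1.23), and at 60 min against mock between 0.703 and 0.943 (median 0.871). The level at 60 min was 0.569 to 0.785 times that at 15 min (median 0.713). Of the 700 genes at this count level whose 15-min ratio was 0.2 or more in all 3 replicates, these 12 were 1.71%. In 672 of the 700 (96%) the 60-min ratio was above 0.1 in all 3 replicates, and the median log2 fold change of the 700 was 0.56 after 15 min of ABA and 1.5 after 60 min. Only 36 of the 700 had a lower mean ratio at 60 min than at 15 min. Among all 31341 genes of that count level, 42% had 60-min ratios of 0.1 or less in all 3 replicates. Both ratios of a replicate share its mock sample and are not independent, so nothing is read from setting these shares side by side. In the mirrored direction, 180 genes had 15-min ratios of -0.2 or less in all 3 replicates, and 5 of them (2.78%) had 60-min ratios of -0.1 or more in all 3.

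**Figure D1:**
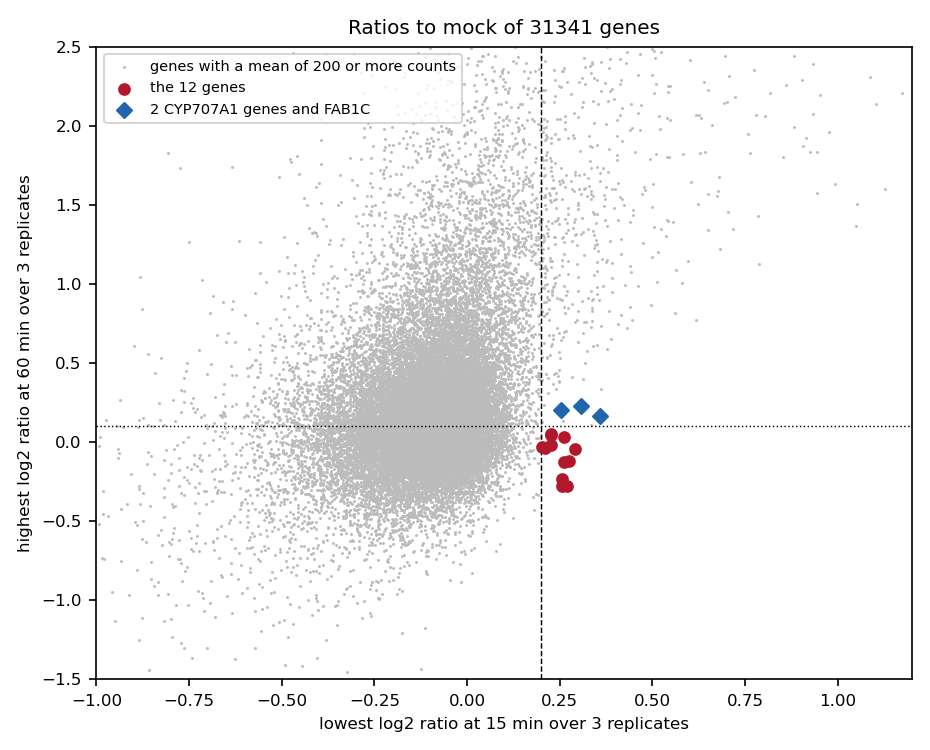
Each grey point is 1 of the 31341 genes that reached a mean of 200 counts. The x axis gives the lowest of its 3 log2 ratios to mock at 15 min and the y axis the highest of its 3 log2 ratios to mock at 60 min, and dashed and dotted lines mark the limits of 0.2 and 0.1. The 12 members (red) lie right of the dashed line and below the dotted line, while the FAB1C gene and 2 CYP707A1 genes (blue diamonds) lie just above the dotted line. There are 502 genes outside the plotted range.

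Most of the members were expressed at a low level, with group means in mock from 1.65 to 10.9 CPM. Mean counts ranged from 205 to 1321 with a median of 299, and 10 of the 12 had 405 or fewer, below the median of 1103 over the 31341 genes of at least 200 counts. The most deeply counted member was BnaC07g09950D on chromosome C07, with a mean of 1321 counts. It had 13.2, 10.5 and 8.96 CPM in the mock-treated samples of replicates 1, 2 and 3, then 15.9, 12.8 and 11.4 CPM at 15 min, and 11.3, 9.66 and 8.04 CPM at 60 min. The order within each replicate was the same, with 15 min highest and 60 min lowest. Every 15-min sample was above every 60-min sample, while the 15-min and mock ranges overlapped. Group means were 10.9 ± 2.13 CPM in mock, 13.4 ± 2.34 CPM at 15 min and 9.66 ± 1.62 CPM at 60 min (SD, n = 3 each), so that the spread between replicates within a group was about as large as the step between groups. The within-replicate log2 ratios were tighter, at 0.27, 0.29 and 0.34 for 15 min and -0.22, -0.12 and -0.15 for 60 min.

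The next in depth was BnaC05g42990D on C05, with a mean of 1163 counts. Its levels were 6.81, 13.7 and 8.72 CPM in mock, 7.96, 16.1 and 10.3 CPM at 15 min and 5.74, 14.2 and 6.62 CPM at 60 min. Replicate 2 was the highest in every group, at about the same level in mock and at 60 min, and the groups overlapped. This gene had the most even 15-min ratios of all 12, at 0.22, 0.23 and 0.23, and its 60-min ratios were -0.25, 0.05 and -0.40. BnaC05g14160D, also on C05 with a mean of 405 counts, had 4.36, 3.14 and 2.69 CPM in mock, 5.25, 3.88 and 3.23 CPM at 15 min and 3.32, 3.22 and 2.18 CPM at 60 min. Here too the 60-min level of replicate 2 was near that of mock (ratio 0.03), while replicates 1 and 3 were lower (-0.39 and -0.30).

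The gene BnaA04g19380D, on A04 with a mean of 286.1 counts, was the single member whose 15-min samples all lay above all mock samples. It had 2.70, 2.23 and 2.08 CPM in mock, 3.23, 2.91 and 2.76 CPM at 15 min and 2.47, 1.74 and 1.80 CPM at 60 min. The 15-min samples also lay above all 60-min samples, and the mock and 60-min samples overlapped. Its 15-min ratios were 0.26, 0.38 and 0.41 and its 60-min ratios -0.13, -0.35 and -0.21. Of the 12 members, 1 had 15-min samples that did not overlap mock on this side, beside 1.55% of all 52881 genes, and 2 (BnaA04g19380D and BnaC07g09950D) had 60-min samples all below the 15-min samples, beside 5.91%. None of the 12 had all 60-min samples below all mock samples, beside 6.16%.

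**Figure D2:**
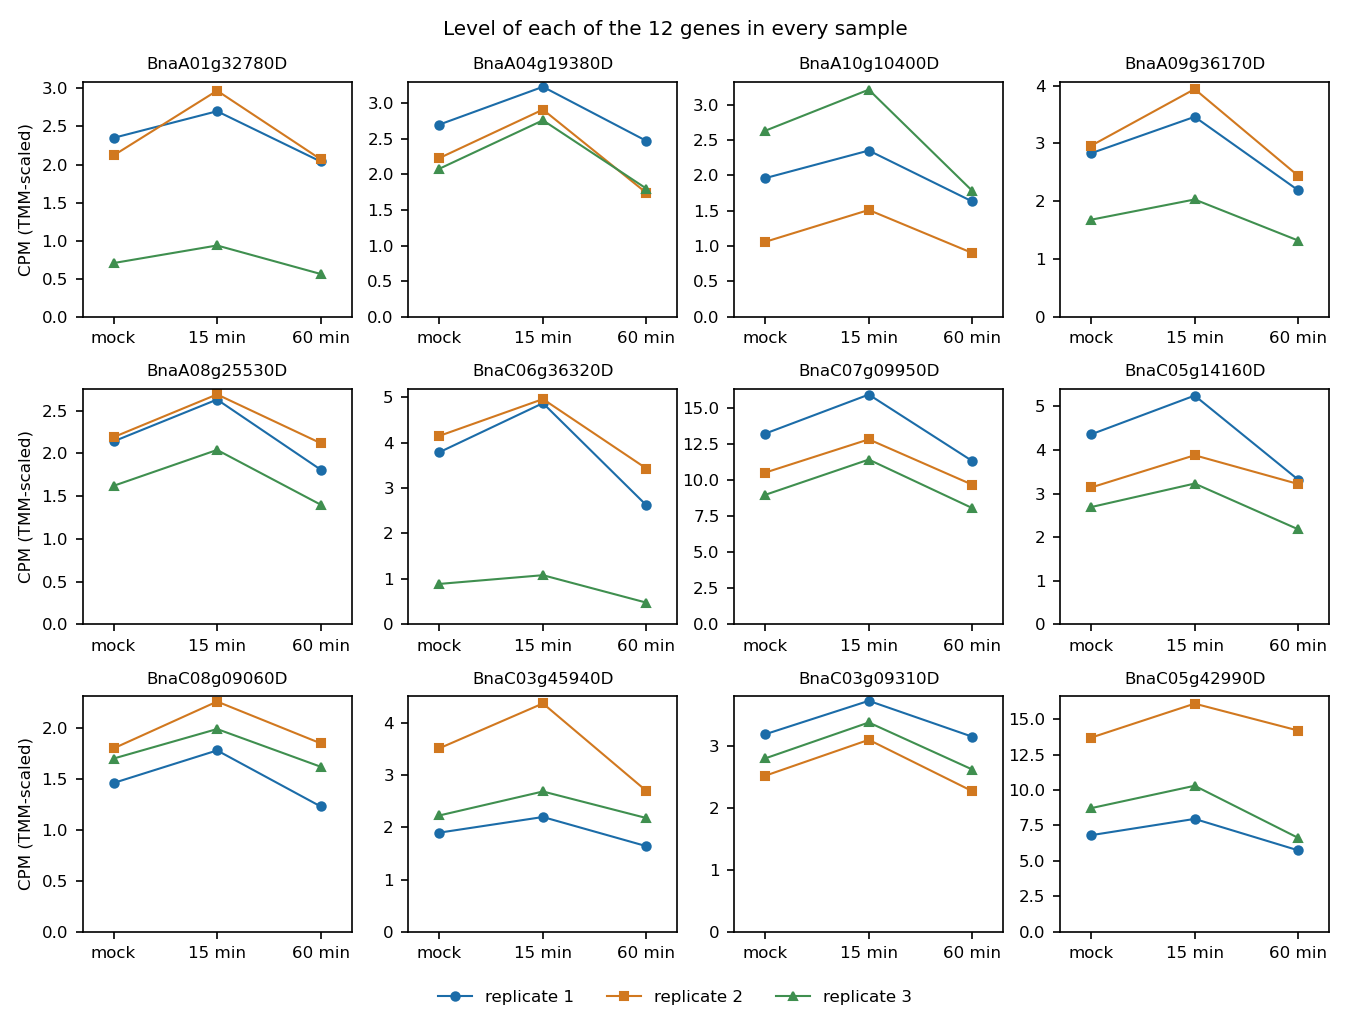
Level of each of the 12 genes in CPM after TMM scaling (y axis, from 0) in mock-treated samples and after 15 and 60 min of ABA (x axis). Each line joins the 3 samples of 1 replicate number (blue circles 1, orange squares 2, green triangles 3). Every line peaks at 15 min, as the choice of genes requires, and for most genes the lines are farther apart than the steps along them.

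The level at 60 min relative to mock was lowest in BnaC06g36320D, and BnaA09g36170D was also well below mock in each replicate. BnaC06g36320D on C06, with a mean of 330.8 counts, had 3.79, 4.15 and 0.888 CPM in mock, 4.87, 4.96 and 1.08 CPM at 15 min and 2.62, 3.43 and 0.475 CPM at 60 min. Replicate 3 stood far below the others in every group, and single counts ran from 54 to 657. Its 15-min ratios were 0.36, 0.26 and 0.28, and its 60-min ratios of -0.53, -0.28 and -0.88 included the lowest of all members. BnaA09g36170D on A09, with a mean of 293.8 counts, had 2.83, 2.96 and 1.68 CPM in mock, 3.46, 3.94 and 2.03 CPM at 15 min and 2.19, 2.44 and 1.32 CPM at 60 min. Replicate 3 was again the lowest in each group. Its 15-min ratios were 0.29, 0.41 and 0.27, and its 60-min ratios -0.37, -0.27 and -0.35.

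The largest single 15-min ratios were found in replicate 2 of BnaA10g10400D and BnaA01g32780D, which are among the lowest in counts. BnaA10g10400D on A10 (mean 229.7 counts) had 1.96, 1.06 and 2.63 CPM in mock, 2.35, 1.51 and 3.21 CPM at 15 min and 1.63, 0.902 and 1.78 CPM at 60 min. Its 15-min ratios were 0.26, 0.50 and 0.29, its 60-min ratios were -0.27, -0.23 and -0.55, and replicate 3 was the highest in each group, which no other member showed. BnaA01g32780D on A01 (mean 207.2 counts) had 2.35, 2.12 and 0.706 CPM in mock, 2.70, 2.97 and 0.937 CPM at 15 min and 2.04, 2.07 and 0.563 CPM at 60 min. Its 15-min ratios of 0.20, 0.48 and 0.40 were the least even, and replicate 3 was far below the other two in every group. The 60-min ratios of this gene were -0.20, -0.03 and -0.32.

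Among the members that came back closest to mock at 60 min were BnaC08g09060D and BnaC03g09310D. BnaC08g09060D on C08, the member with the fewest counts (mean 205), had 1.46, 1.80 and 1.70 CPM in mock, 1.78, 2.26 and 1.99 CPM at 15 min and 1.23, 1.85 and 1.62 CPM at 60 min. Its 60-min ratios of -0.24, 0.05 and -0.07 lay on both sides of mock. BnaC03g09310D on C03 (mean 349.4 counts) had 3.19, 2.52 and 2.80 CPM in mock, 3.73, 3.10 and 3.38 CPM at 15 min and 3.15, 2.27 and 2.62 CPM at 60 min. Its 60-min ratios of -0.02, -0.15 and -0.10 were all slightly below mock. The 15-min ratios of this pair were 0.28, 0.33 and 0.23 for BnaC08g09060D and 0.23, 0.30 and 0.27 for BnaC03g09310D.

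The other two members had intermediate values. BnaA08g25530D on A08 (mean 241.3 counts) had 2.14, 2.19 and 1.62 CPM in mock, 2.63, 2.69 and 2.04 CPM at 15 min and 1.81, 2.12 and 1.40 CPM at 60 min. Its 15-min ratios of 0.30, 0.29 and 0.32 were nearly equal, and its 60-min ratios were -0.24, -0.05 and -0.21. BnaC03g45940D on C03 (mean 303.9 counts) had 1.90, 3.52 and 2.23 CPM in mock, 2.20, 4.38 and 2.69 CPM at 15 min and 1.64, 2.70 and 2.18 CPM at 60 min, with replicate 2 highest throughout. The 15-min ratios were 0.21, 0.31 and 0.26, and the 60-min ratios -0.22, -0.38 and -0.03.

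**Figure D3:**
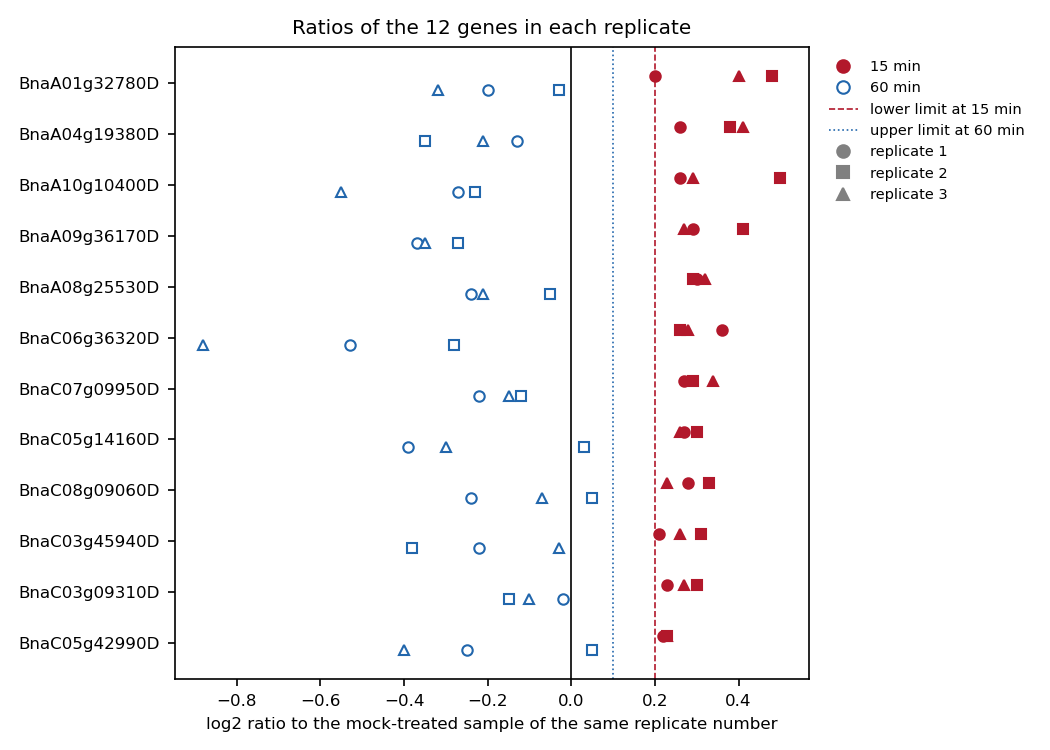
Log2 ratios to the mock-treated sample of the same replicate number (x axis) for each of the 12 genes (y axis), at 15 min (filled red) and 60 min (open blue), with the replicate number given by the marker. The dashed and dotted lines mark the limits of 0.2 and 0.1 used to choose the genes. The 15-min ratios lie within 0.20 to 0.50, whereas the 60-min ratios spread from -0.88 to 0.05.

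Of the 36 single 60-min ratios, 33 (91.7%) were below 0, and in 9 of the 12 genes (75%) all 3 were. The limit used to choose the genes bounds these ratios from above, so that this is a description from which nothing is read. Among all 13154 genes with at least 200 counts and 60-min ratios of 0.1 or less in all replicates, 85.2% of the single ratios were below 0, and in 66.8% of the genes all 3 were. Median 60-min ratios over the 12 genes were -0.24, -0.13 and -0.26 in replicates 1, 2 and 3, and median 15-min ratios 0.26, 0.31 and 0.27. The step between 15 and 60 min was of a similar size in each replicate, with medians of -0.51, -0.48 and -0.59.

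In edgeR's quasi-likelihood test over all 52881 genes with Benjamini-Hochberg adjustment, none of the 12 genes passed an adjusted p of 0.05 at 15 min against mock, beside 0.431% of all genes. DESeq2 also called none, beside 0.927% of all genes. All 12 had an unadjusted p under 0.05 in edgeR, beside 5.54% of all genes. The genes were chosen on this contrast, so these counts are given as a description and nothing is read from them. Fitted log2 fold changes at 15 min ran from 0.23 ± 0.09 (SE) in BnaC05g42990D to 0.36 ± 0.12 (SE) in BnaA01g32780D. The lowest adjusted p in edgeR's test was that of BnaC07g09950D, at 0.10 for a change of 0.30 ± 0.06 (SE), higher in 3 of 3 replicates. The other 11 were at 0.41 or above. Of the 700 genes with 15-min ratios of 0.2 or more in all replicates, 202 (28.9%) were called at 15 min.

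At 60 min against mock, 2 of the 12 were called lower, beside 10.6% of all genes and 13.6% of those with at least 200 counts. None was called higher, beside 15.2% of all genes. The limit on the 60-min ratios favours lower calls and works against higher ones. These counts are therefore a description, and nothing is read from them. The called pair was BnaC06g36320D, with a log2 fold change of -0.51 ± 0.13 (SE) and an adjusted p of 0.016 in edgeR's test, and BnaA09g36170D, with -0.33 ± 0.10 (SE) and 0.032. Both were lower in 3 of 3 replicates, but DESeq2 called BnaC06g36320D alone of the 12, beside 8.92% of all genes called lower, and without replicate 1 none of the 12 was called, beside 3.02%. BnaA10g10400D was at -0.37 ± 0.12 (SE) with an adjusted p of 0.052 by edgeR. The smallest difference from mock was -0.08 ± 0.12 (SE) in BnaC08g09060D, with an adjusted p of 0.65 by edgeR, followed by -0.09 ± 0.09 (SE) in BnaC03g09310D with 0.55. These p values do not show that the levels equalled mock.

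Between the exposures, all 12 were called lower at 60 min than at 15 min, beside 9.45% of all genes and 12.5% of those with at least 200 counts. The rule sets both ratios of this difference, and nothing is read from the count. Without replicate 1, 4 of the 12 were called, beside 1.67% of all genes. Log2 differences ran from -0.81 ± 0.13 (SE) in BnaC06g36320D to -0.35 ± 0.09 (SE) in BnaC03g09310D. The lowest adjusted p in edgeR's test was 0.00057, in BnaC07g09950D (-0.47 ± 0.06, SE), and the highest was 0.044, in BnaC08g09060D (-0.37 ± 0.12, SE). Of the 700 genes above mock in all replicates at 15 min, 16 were called lower at 60 min than at 15 min, the 12 members among them. Median log2 fold changes of the 12 were 0.30 at 15 min, -0.20 at 60 min and -0.49 between the exposures, beside 0.00, -0.03 and -0.01 over all genes tested.

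The direction at 60 min, but not the count of calls, was shared by the scalings tried. The limit on the 60-min ratios favours that direction, so nothing is read from it. When total counts alone set the scale, the median of all genes shifted to -0.32 at 60 min and that of the 12 members to -0.49, and all 12 were called lower than mock, beside 43.9% of all genes. Relative to the median of all genes, members were then lower at 60 min by about the same amount as under TMM. Under total-count scaling, 12 genes met the rule, but only 7 of them were among the 12 described here. The 5 that no longer met it were BnaA01g32780D, BnaC03g45940D, BnaC05g14160D, BnaC05g42990D and BnaC08g09060D. Leaving out the replicate block left none called at 60 min against mock, beside 0.11% of all genes called lower, and none between the exposures, beside 0.0132%.

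Counting error alone was sizeable beside the 15-min ratios. The standard error that counting gives to 1 such ratio was 0.05 to 0.193 on the log2 scale, with a median of 0.112. The single 15-min ratios were 1.55 to 6.21 times that error, with a median of 2.67, and 6 of the 36 were under 2 times. The limits on ratios and counts that chose the genes keep these multiples from being small, so nothing is read from them. These errors do not cover the spread between preparations.

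Some members lay close to the limits that chose them, and other genes lay just outside. Others were well inside, such as BnaC06g36320D and BnaA09g36170D at 60 min and BnaC07g09950D in counts. For the 15-min limit of 0.2, the lowest ratios inside were 0.202 (BnaA01g32780D), 0.2096 (BnaC03g45940D) and 0.2247 (BnaC05g42990D), and those just outside were 0.1995 (BnaA07g19470D), 0.1985 (BnaA02g30660D) and 0.1923 (BnaC05g14880D). There were 34 genes that met the other conditions with a lowest 15-min ratio from 0.15 up to the limit. For the 60-min limit of 0.1, the highest ratios inside were 0.0515 (BnaC05g42990D), 0.0455 (BnaC08g09060D) and 0.0334 (BnaC05g14160D), and outside 0.1046 (BnaA05g12020D), 0.1284 (BnaA01g36490D) and 0.1361 (BnaA02g33010D). Only 3 genes that met the other conditions had a highest 60-min ratio above 0.1 and up to 0.15. For the limit of 200 counts, means inside were 205 (BnaC08g09060D), 207.2 (BnaA01g32780D) and 229.7 (BnaA10g10400D), and outside 178.7 (BnaA09g36040D), 168.8 (BnaC05g13920D) and 158.9 (BnaC01g18400D), and 75 genes under 200 counts met the rest of the rule.

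Values that the choice did not use can be had by applying the limits in 2 replicate numbers and reading the third, a description added after the values were known. Without replicate 1, 65 genes met the limits in replicates 2 and 3, and in replicate 1 they had a median 15-min ratio of 0.05 and a median 60-min ratio of -0.27. Without replicate 2, 68 genes met them and had medians of 0.07 and -0.22 in replicate 2. Without replicate 3, 110 genes met them, with medians of 0.03 and -0.35 in replicate 3. The median 15-min ratio in the replicate left out was near 0 each time, and the median 60-min ratio was below mock. Over all genes with at least 200 counts, the median 15-min ratios were 0, 0.01 and 0.02 in replicates 1, 2 and 3. Their median 60-min ratios were 0.02, 0.02 and 0.03. Those genes were not limited at 60 min in the other replicates, so nothing is read from these medians.

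The share of genes with a 15-min ratio above 0 in the replicate left out was 58.5%, 67.6% and 53.6% for replicates 1, 2 and 3, beside 49.3%, 52.4% and 55.4% of all genes with at least 200 counts. The limit of 0.2 was met there by 23.1%, 20.6% and 12.7%, beside 10.4%, 10.3% and 12.8% of all such genes. Both limits were met by the 12 members each time, as their choice requires. They were 18.5%, 17.6% and 10.9% of the genes chosen in the other replicates, beside 2.90%, 3.28% and 2.45% of all such genes. In 93.8%, 88.2% and 89.1% the 60-min ratio was below the 15-min ratio of the same replicate, beside 45.6%, 45.6% and 46.4%. These ratios share the mock sample of the replicate left out, and the genes are not independent of each other. The genes set beside them were not limited at 60 min in the other replicates, so nothing is read from these shares.

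The levels of the 12 genes also differed between replicate numbers, which the within-replicate ratios do not use. The replicate terms passed an adjusted p of 0.05 in edgeR's quasi-likelihood test for all 12, beside 71.1% of all genes and 83.2% of those with at least 200 counts. The largest spread was in BnaC06g36320D, whose mean log2 level deviated by 0.68, 0.86 and -1.54 in replicates 1, 2 and 3 (adjusted p of 7.0e-07 in edgeR's test). BnaA01g32780D deviated by 0.56, 0.57 and -1.12, and BnaC05g42990D by -0.47, 0.64 and -0.16. Replicate 3 was the lowest for 7 of the 12 members, beside 36.8% of the genes with at least 200 counts, and the highest for 1, beside 32.8%.

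**Figure D4:**
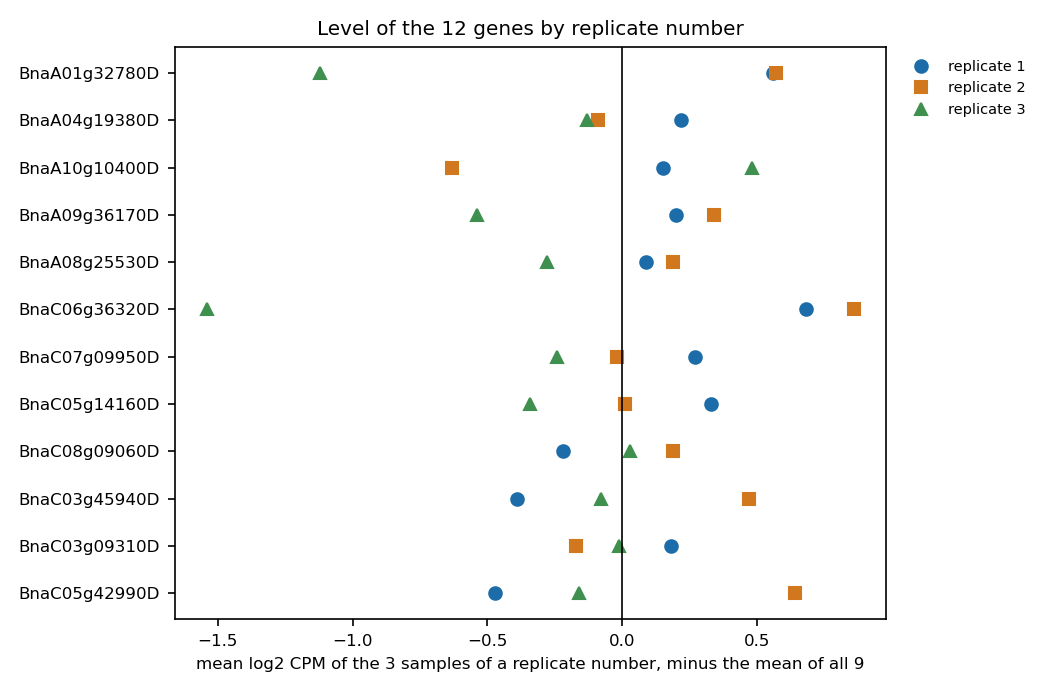
Deviation of each replicate number from the gene's mean, as the mean log2 CPM of its 3 samples minus the mean of all 9 (x axis), for each of the 12 genes (y axis). Replicate 3 (green triangles) lies lowest for 7 of the 12 genes, down to -1.54 in BnaC06g36320D, and replicate 2 (orange squares) lies highest for 7.

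Marker genes differed between the replicate numbers too. The 7 guard cell marker genes summed to 838, 1080 and 2420 CPM in replicate 3 in mock, at 15 min and at 60 min, to 273, 315 and 1120 CPM in replicate 1 and to 227, 243 and 639 CPM in replicate 2. These sums came mostly from the ALMT12 and MPK12 genes. In mock, the OST1 gene BnaA01g03110D had 2.23, 2.42 and 2.62 CPM in replicates 1, 2 and 3. The OST1 gene BnaC01g04370D had 3.06, 3.78 and 3.91 CPM there. All 7 marker genes were called higher at 60 min than in mock, beside 15.2% of all genes. Their IDs came from the study's tables, whose ABA genes were picked on these samples for their change at 60 min. Nothing is read from this rise. The CAB1 gene BnaC03g59520D had 19.8, 22.1 and 34.7 CPM in replicate 3, against 42.7, 38.6 and 49.4 CPM in replicate 1 and 43.0, 46.9 and 56.9 CPM in replicate 2. It did not differ detectably at 15 min from mock (log2 fold change 0.04 ± 0.10, SE, adjusted p of 1 in edgeR's test) and was higher at 60 min (0.47 ± 0.10, SE, adjusted p of 0.0071). The part of cell composition in the members' levels was not tested, and in such bulk samples fewer cells of a type and less RNA per cell cannot be told apart.

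By the names of their IDs, the 12 genes were spread over 10 chromosomes, with 2 each on C03 and C05 and 1 each on A01, A04, A08, A09, A10, C06, C07 and C08. The A subgenome, from Brassica rapa, held 5 (41.7%) and the C subgenome, from Brassica oleracea, 7 (58.3%), beside 48.5% and 51.3% of the genes with at least 200 counts. Of the 24 genes next to a member in ID number, 18 were tested, with median log2 fold changes of 0.045 after 15 min and 0.02 after 60 min. In edgeR's test 1 of these 18 was called at 15 min, beside 0.431% of all genes. It was BnaA09g36180D, beside BnaA09g36170D, with 0.79 (adjusted p of 0.002) at 15 min and 1.49 (adjusted p of 2.5e-06) at 60 min. At 60 min against mock, 3 of the 18 were called higher and 2 lower, beside 15.2% and 10.6% of all genes. Between the exposures, 2 were called lower at 60 min than at 15 min, BnaA01g32790D (-0.44, adjusted p of 0.0025) and BnaC05g14170D (-0.46, adjusted p of 0.048), beside 9.45% of all genes. Another 2 were called higher, BnaA09g36180D (0.70, adjusted p of 2e-04) and BnaC08g09070D (0.29, adjusted p of 0.0065). Of all genes, 23.7% were called between the exposures in either direction. Nothing is read from these counts of neighbours.

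None of the 12 genes was on the study's lists of ABA genes, transcription factors or transient genes. Of the 86 ABA genes that the study listed for their change at 60 min, 12 were called higher and 2 lower at 15 min, with 67 called higher and 19 lower after 60 min. Of all genes, 0.395% were called higher and 0.0359% lower at 15 min, and 15.2% and 10.6% at 60 min. The list of ABA genes was picked on these samples and is no independent evidence of its direction. Of 43 genes for transcription factors with binding sites in the study's promoter tables, 37 were tested, of which 2 passed as higher at 15 min, with 20 higher and 2 lower after 60 min. Of all genes, 0.395%, 15.2% and 10.6% were called so. The study picked these binding sites for enrichment in promoters of genes called in these samples. Nothing is read from these counts. The study listed 11 genes as transient, of which 2 were called higher at 15 min and 1 higher at 60 min, beside 0.395% and 15.2% of all genes. Most of the 11 were listed as lower at 15 min, but none was called lower by edgeR's test here. The study used DESeq2, which called 72 of all genes lower at 15 min when run here, against 19 by edgeR. The median log2 fold change of the 11 at 15 min was -0.45. The list of transient genes too was picked on these samples.

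The genes nearest to the pattern on those lists missed the 60-min limit. The CYP707A1 gene BnaC01g11650D had 0.58, 0.36 and 0.47 as 15-min ratios and 0.17, -0.08 and -0.01 as 60-min ratios in replicates 1, 2 and 3. The CYP707A1 gene BnaAnng27240D had 0.58, 0.25 and 0.37 at 15 min and 0.20, 0.03 and -0.01 at 60 min. In both, only replicate 1 was above 0.1 at 60 min, so that they would have been outside the 12 without being named. BnaC06g32150D, for the lipid kinase FAB1C, had 0.31, 0.39 and 0.32 at 15 min and 0.23, 0.15 and 0.21 at 60 min. BnaC05g31990D had 1.70, 0.34 and 0.83 at 15 min and 0.49, 0.05 and 0.29 at 60 min, with a mean of 167.6 counts. In the lowest of their 15-min ratios these 4 genes lay at 0.254 to 0.359, and the 12 members at 0.202 to 0.29.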

How the data were processed

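RNA-seq counts of 9 guard cell protoplast samples in 3 groups of 3 were used. Per the study's methods, TopHat2 placed single-end reads on the genome of the Darmor line and HTSeq counted those that fit a single gene. The authors deposited these raw counts per gene. Versions, annotation release and strand setting are not given in the sources used here. No column was left unused.

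From the counts, TMM-scaled CPM, within-replicate log2 ratios (prior count 2), log2 fold changes, standard errors (the absolute log2 fold change over the square root of F) and Benjamini-Hochberg adjusted p-values came from edgeR 4.0.16 (R 4.3.3). One quasi-likelihood model of edgeR covered the 9 samples and the 52881 genes that filterByExpr kept, with terms for treatment and, as in the study's methods, for the replicate number. The numbers paired the samples, since the study describes each biological sample as including the 3 treatments, and deviations from group means correlated positively between same-numbered samples (0.715 to 0.851) and negatively between others (-0.588 to -0.156). Library totals were 88051359 to 123968001 counts. No libraries of a group were copies of each other. Scripts were tested on simulated data.

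Alternatives were RLE and total-count scaling, DESeq2 1.42.0, prior counts of 0.5 and 5, mean count limits of 100 and 400, a mean of 50 counts as the filter, no filter, no block, only the groups compared, and each replicate number left out. All members are named. The members and lists were chosen with earlier results of these data known. Of the IDs in the table, 3347 occurred in the RefSeq gene table of the Da-Ae assembly, none of them a member, so gene names come from the study's tables, and lists defined by product name were not used.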

Additional observations from a re-analysis of the deposited data

How the results depend on the processing

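The 12 genes depended most on the limits. With a mean of at least 100 counts 23 genes met the rule, with at least 400 counts 3 did (BnaC07g09950D, BnaC05g42990D and BnaC05g14160D), and 65 to 110 did when it was required in only 2 replicate numbers. RLE scaling and a prior count of 5 each gave 11, without BnaA01g32780D, and a prior count of 0.5 gave 13, all 12 among them. Calls at 15 min against mock were 1 when only these 2 groups were fitted, beside 1.73% of all genes. The called gene was BnaC07g09950D (adjusted p of 0.02 in edgeR's test, range 0.02 to 1 over its alternatives). With replicate 1, 2 or 3 left out, calls at 15 min were 0, beside 0.00946%, 0.487% and 0.527% of all genes. Calls at 60 min against mock, all lower, were 12 with total-count scaling (beside 43.9% of all genes called lower), 4 with a filter at a mean of 50 counts (14.3%), 1 each with DESeq2 (8.92%), with no filter (7.23%) and with only the 2 groups (6.44%), 0 with no replicate block (0.11%), 0 without replicate 1 (3.02%), 2 without replicate 2 (7.36%) and 1 without replicate 3 (8.27%). Calls between the exposures were 0 with no replicate block (0.0132%), 4 without replicate 1 (1.67%), 8 without replicate 2 (5.52%) and 10 without replicate 3 (8.23%). Without the block, 5 genes in all were called at 15 min, 895 at 60 min and 243 between the exposures.

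Median log2 fold changes of the 12 with total-count scaling were 0.27 at 15 min, -0.49 at 60 min and -0.74 between the exposures. With a replicate number left out they were 0.27 to 0.30 at 15 min, -0.25 to -0.16 at 60 min and -0.55 to -0.47 between the exposures. No fitted change of a member reversed in any alternative. The limits that chose the genes on the same counts favour these directions, so nothing is read from this. Over single members and alternatives, 1 more call arose at 15 min, 13 arose and 9 were lost at 60 min, and 30 were lost between the exposures. The comparison of promoter windows was not run, since no sequence was at hand. Groups of 3 and a median of 299 counts limit what differences can be shown.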
